A study of Mus musculus with 18 samples.

Results

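Liver CD11b+ cells were compared with lung CD11b+ cells on 8 of the 18 arrays of the series. The 8 arrays were chosen by their labels alone: 4 carry the name liver CD11b and 4 the name lung CD11b, and each set of 4 holds 2 arrays of each genotype. Intensities are given on the log2 scale, and every difference is liver minus lung, so that a positive one means higher signal in liver.

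The series profiled dendritic cells and sorted myeloid cells by 1-colour gene arrays, from mice that express active BRAF in CD11c+ cells and from their littermates. BRAF arrays are from mice with CD11c-Cre and the BRAFV600E(CA-flox) allele, in which the Cre is limited to cells that express the integrin CD11c. WT arrays are from littermates that carry the same BRAFV600E(CA-flox) allele and no Cre, so that allele is shared by all 8 arrays. The mice were 14 weeks old and untreated. The groups were BRAF liver CD11b (replicates 2 and 3), WT liver CD11b (1 and 3), BRAF lung CD11b (1 and 2) and WT lung CD11b (1 and 3). Cells were sorted on a FACS Aria after tissue dissection, the labels give CD11b+ as the cell type, and they state no further gate for these samples. The labels do not say whether replicates came from separate animals, so the scatter between arrays may be technical. Each p-value rests on 1 spread per gene, pooled within groups over all 18 arrays of the series and not over these 8 alone. Estimated array weights, which are lower for arrays that scatter more, were 0.37 to 0.45 in liver and 0.98 to 1.69 in lung CD11b. They were 0.11 to 6.02 on the other arrays, so the pooled spread may understate the scatter in liver. With the 8 arrays alone in the fit, 109 genes were called over both genotypes, against 325.

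CD11b, encoded by Itgam, is an integrin chain carried by monocytes, neutrophils, many macrophages and 1 branch of conventional dendritic cells. Resident macrophages take on organ-specific programmes: Kupffer cells line the liver sinusoids, alveolar macrophages lie in the air spaces of the lung, and interstitial macrophages lie in lung tissue around vessels and airways. Dendritic cells carry antigen to lymph nodes, and the chemokine receptor CCR7 guides that migration.

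Itgam, the gene of CD11b, was at 10.92 and 10.24 on the BRAF liver arrays and 10.3 and 9.32 on the WT liver arrays, against 11.43 and 10.68 on the BRAF lung arrays and 10.73 and 10.65 on the WT lung arrays. Itgax, the gene of CD11c, lay between 10.88 and 11.72 in liver and between 11.64 and 12.13 in lung. Both genes were high on all 8 arrays, and neither passed the test of the organ difference (limma adjusted p = 0.214 and 0.361). Csf1r, Adgre1, Lyz2 and C1qb, genes of monocytes and macrophages, were also high in both organs, with means of 11.31, 10.51, 13.1 and 12.17 in liver and of 11.53, 11.28, 13.3 and 12.71 in lung. Cd209a, a gene of CD11b+ dendritic cells of monocyte type, averaged 12.24 in liver and 12.52 in lung. Flt3 and Zbtb46, genes of conventional dendritic cells, ranged from 9.12 to 9.88 and from 6.82 to 7.41 in liver, against 7.71 to 9.81 and 6.62 to 7.56 in lung. S100a8, a neutrophil gene, and Cd79a, a B cell gene, reached at most 6.91 and 6.96 in liver and 7.03 and 7.46 in lung. The 19 neutrophil genes tested differed by -1.78 to 2.14, with 0 called, beside 2.12% of all genes tested. Their mean level was 7.15 and 7.51 in BRAF liver and 6.34 and 6.56 in WT liver, against 7.21 and 6.76 in BRAF lung and 6.68 and 6.45 in WT lung. The RNA of both organs thus carried macrophage, monocyte and dendritic cell markers together. In such RNA, fewer cells of a type and less RNA per cell cannot be told apart. Braf itself averaged 8.49 ± 0.34 in liver and 8.9 ± 0.29 in lung (SD, n = 4 each), a difference of -0.41 ± 0.21 (SE) with an adjusted p of 0.289.

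Several of the 8 arrays stood apart from the others. The log2 values of WT liver replicate 3 had an interquartile range of 1.92, against 2.43 to 2.96 on the other 7 arrays. BRAF liver replicate 3 had a mean of 9.95 over the 31 cell cycle genes tested, against 7.41 to 8.03 on the other liver arrays and 7.85 to 8.35 in lung. BRAF lung replicate 1 had a mean of 8.83 over the 23 Kupffer cell markers, against 6.69 to 7.11 on the 4 liver arrays and 6.97 to 7.23 on the other lung arrays. On that lung array Vsig4 was at 11.94, Fcna at 11.44, Cd5l at 10.33, Slc40a1 at 9.91 and Clec1b at 9.3, whereas the highest liver values of these genes were 8.89, 7.22, 5.77, 6.52 and 6.3. Clec4f, which defines Kupffer cells, was at 6.63 there and between 6.18 and 6.93 in liver. BRAF lung replicate 2 had a mean of 9.17 over the 19 alveolar macrophage markers, against 6.73 to 7.07 in liver and 6.95 to 7.63 on the other lung arrays. Chil3 was at 11.38, Ctsk at 11.39, Plet1 at 11.25 and Car4 at 10.86 on that array, and Siglecf, which defines alveolar macrophages, was at 8.11, within its range of 7.45 to 8.28 in liver. The 2 BRAF lung arrays thus differed from each other in macrophage markers, and the liver arrays did not carry the Kupffer cell markers at a high level.

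Sex-linked genes also differed. Xist, expressed from the inactive X chromosome, was at 5.2 on BRAF lung replicate 2 and between 10.33 and 12.29 on the other 7 arrays. Eif2s3y, a gene of the Y chromosome, was at 8.89 on BRAF lung replicate 2, at 7 on WT liver replicate 3 and at 7.47 on WT lung replicate 3, and between 3.43 and 4.81 on the other 5. BRAF liver replicate 2 and BRAF lung replicate 2 therefore differed in sex-linked signal although they share a number. The WT arrays numbered 3 carried both Xist and Y-linked signal in both organs. The part of these array differences in the results was not tested. Labels were kept as deposited, and whether an array was swapped or mislabelled was not tested.

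**Figure D1:**
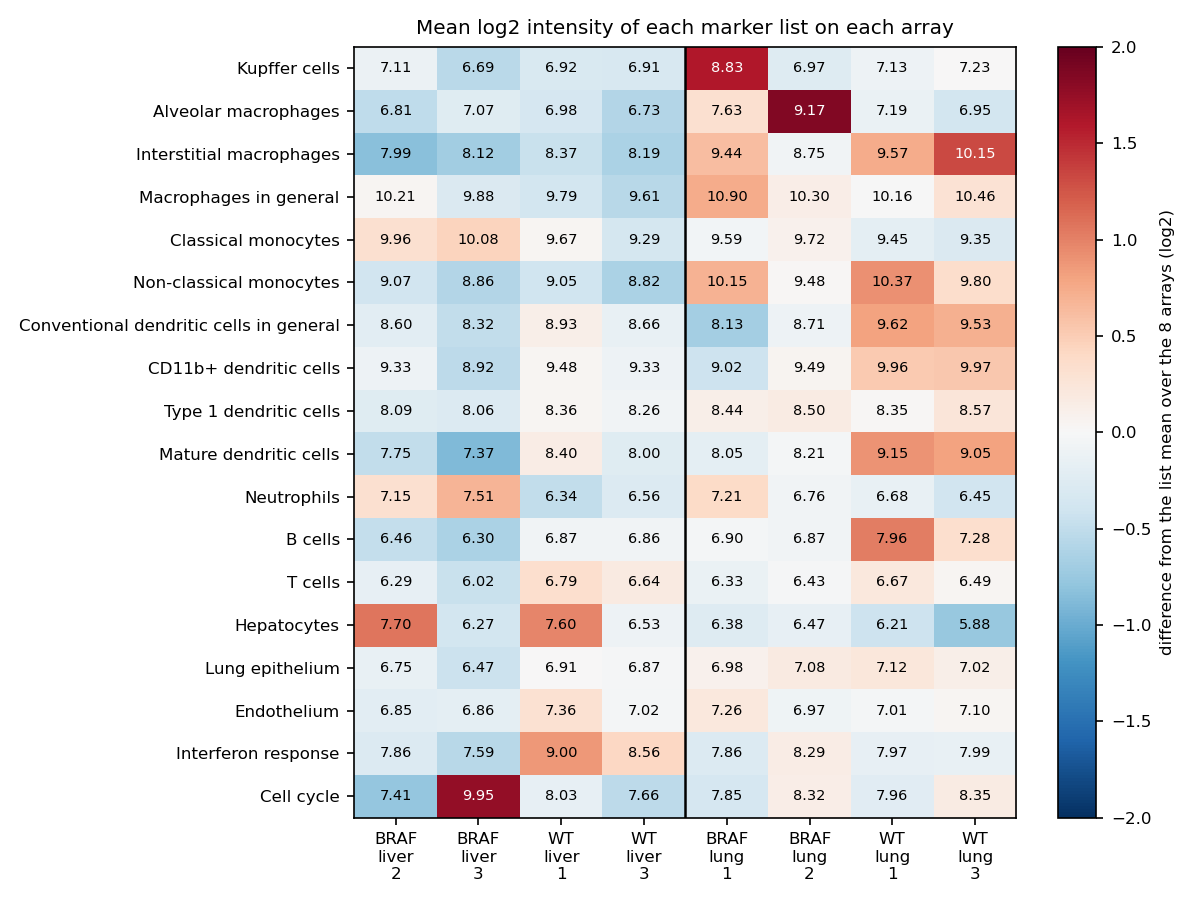
Mean log2 intensity of 18 gene lists (rows) on the 8 arrays (columns, liver left of the line and lung right of it), with each value printed and coloured by its difference from the list's mean over the 8 arrays. The Kupffer cell list is highest on BRAF lung replicate 1 (8.83), the alveolar macrophage list on BRAF lung replicate 2 (9.17) and the cell cycle list on BRAF liver replicate 3 (9.95).

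Of 15365 genes tested, 31 were higher and 294 were lower in liver over both genotypes at an adjusted p under 0.05, which is 0.202% and 1.91% of the genes tested and 2.12% together. The median difference over all genes tested was 0.02. Among the called genes, the 4 liver arrays all lay above the 4 lung arrays for 27 of the 31 and all below them for 212 of the 294. Over all genes tested, such separation was found upwards in 5.62% and downwards in 5% of genes. Most calls were thus of lower signal in liver. Under quantile normalization the counts were 57 higher and 232 lower, so the share of higher calls was 19.7%, against 9.54% with the deposited scaling.

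Single arrays changed these counts. Without BRAF liver replicate 2 the test called 123 genes higher and 329 lower. Without WT liver replicate 3 the test called 12 genes higher and 69 lower, of which 7 and 69 had been called with all arrays. Without WT lung replicate 1 it called 7 and 83, without WT lung replicate 3 it called 10 and 124, without BRAF lung replicate 1 it called 11 and 158, without BRAF lung replicate 2 it called 13 and 202, and without BRAF liver replicate 3 it called 42 and 165. Leaving out WT liver replicate 1 gave 441 higher and 779 lower, the largest count of the 8. In all 8 of these fits, 7 genes stayed called as higher and 59 as lower. The 7 were Cd34, H2bc8, Id3, H3c4, H1f3, Ifitm1 and Id1. When WT liver replicate 3, BRAF liver replicate 3 and BRAF lung replicate 1 were left out together, an alternative chosen after seeing the data, 6 of the 31 and 42 of the 294 stayed called.

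The length of the gene moved with the organ. The 294 genes called lower in liver had a median genomic span of 61.2 kb and the 31 called higher one of 4.57 kb, against 19.7 kb for the 15353 tested genes with a span. On every liver array the longest 10% of genes were dimmer relative to the shortest 10% than on any lung array: the difference of their median log2 values was 0.33 and 0.51 in BRAF liver and 0.33 and -0.01 in WT liver, against 0.69 and 0.59 in BRAF lung and 0.87 and 0.79 in WT lung. The lowest value was that of WT liver replicate 3. Of the 31 genes called higher in liver, 22 had a mean level under the median of all genes tested, which was 7.22, as did 63 of the 294 called lower. The part of gene length and of low signal in the calls was not tested.

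**Figure D2:**
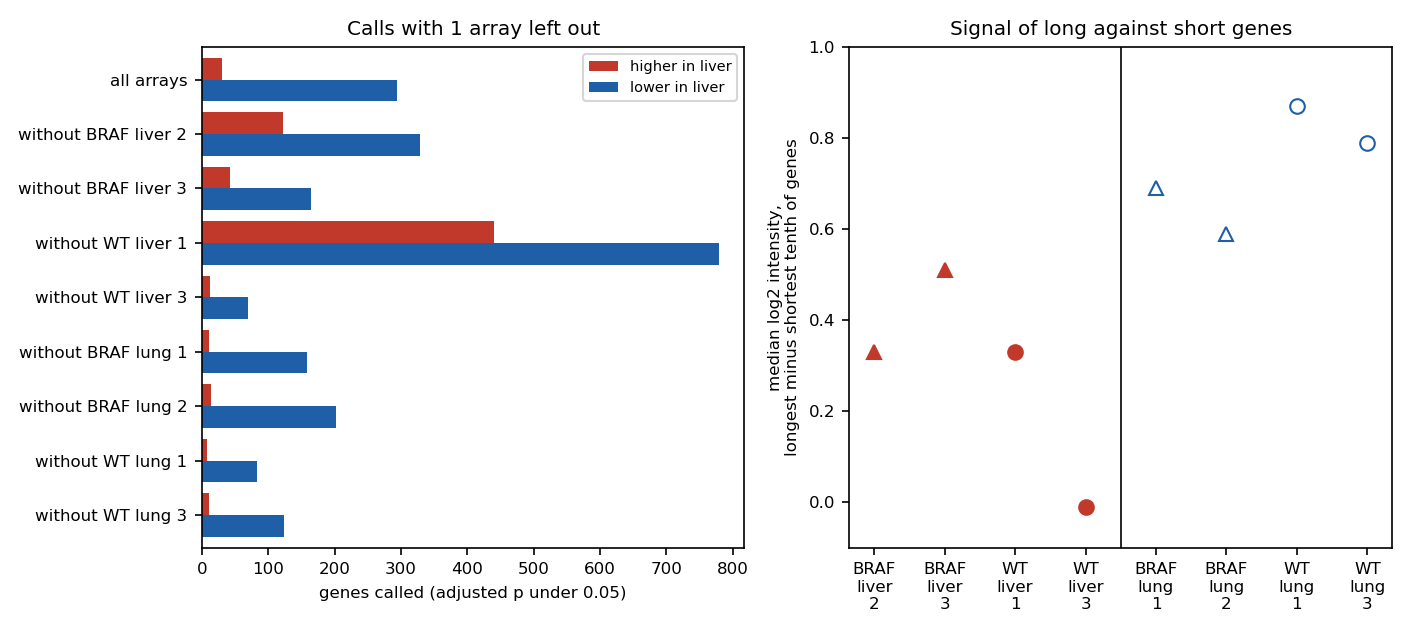
Left, the number of genes called higher (red) and lower (blue) in liver over both genotypes, with all arrays and with each of the 8 arrays left out. Right, the median log2 intensity of the longest 10% of genes minus that of the shortest 10% on each array, with liver (filled red) from -0.01 to 0.51 and lung (open blue) from 0.59 to 0.87; triangles are BRAF and circles are WT.

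Among called genes with separated arrays, the highest difference was that of Cd34, a sialomucin known from blood progenitors and endothelium. Its log2 signal was 10.58 and 9.74 in BRAF liver and 9.61 and 9.63 in WT liver, against 8.07 and 8.3 in BRAF lung and 7.31 and 7.76 in WT lung. All liver arrays lay above all lung arrays. The difference was 2.03 ± 0.23 (SE), or 4.09-fold, with a limma adjusted p of 0.000534, and it was called within BRAF (1.98, adjusted p = 0.0277) and within WT (2.09, adjusted p = 0.0102). The call over both genotypes was kept with each array left out, that in BRAF was lost without either BRAF lung array, and that in WT was lost without WT liver replicate 3 or WT lung replicate 1. The list of 19 endothelial genes tested had 0 members called either way over both genotypes and a median of 0.05. Within WT 2 of the 19 were called higher, beside 0.26% of all genes tested, and the median was 0.15. Within BRAF 0 were called and the median was -0.17. The part of endothelial RNA in the Cd34 difference was not tested.

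The promoters of the 3 highest called genes with separated arrays, Cd34, H2bc8 and Id3, follow. The sequence before and at the start of each gene can thus be read beside its values. They are RefSeq windows of 250 bases before to 50 bases after the gene start in build GRCm38.p6, printed 5′ to 3′ on the gene's strand. Capitals mark GAGGAA, the core that the myeloid factor PU.1 is known to bind, read on either strand, so that TTCCTC is the same motif on the other strand.
Cd34 (chr1:194938571-194938870, + strand): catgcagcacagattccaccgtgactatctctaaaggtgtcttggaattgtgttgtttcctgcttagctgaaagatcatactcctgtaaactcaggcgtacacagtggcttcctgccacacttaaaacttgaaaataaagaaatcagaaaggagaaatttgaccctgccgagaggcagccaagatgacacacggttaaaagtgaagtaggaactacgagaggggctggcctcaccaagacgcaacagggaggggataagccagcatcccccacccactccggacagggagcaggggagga
H2bc8 (chr13:23571150-23571449, + strand): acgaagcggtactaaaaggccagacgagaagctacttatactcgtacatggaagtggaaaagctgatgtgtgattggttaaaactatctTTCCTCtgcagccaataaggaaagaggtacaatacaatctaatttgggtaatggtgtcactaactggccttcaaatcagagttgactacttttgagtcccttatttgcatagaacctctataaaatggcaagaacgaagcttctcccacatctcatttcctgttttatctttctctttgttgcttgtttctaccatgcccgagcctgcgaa
Id3 (chr4:136143572-136143871, + strand): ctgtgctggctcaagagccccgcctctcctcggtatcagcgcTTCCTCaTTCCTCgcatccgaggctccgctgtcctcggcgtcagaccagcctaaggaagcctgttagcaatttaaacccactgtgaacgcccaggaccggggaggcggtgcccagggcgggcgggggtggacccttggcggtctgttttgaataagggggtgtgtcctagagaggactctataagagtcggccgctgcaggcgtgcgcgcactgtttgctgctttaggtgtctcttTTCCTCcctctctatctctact
Cd34 held 0 matches, H2bc8 held 1 and Id3 held 3 on these 300 bases. Both windows listed for Folr2, 1 of the 3 lowest genes with separated arrays, held 0. Of all 32851 promoter windows of that length, 28.3% held the motif on either strand. A match is a description of these letters, not a binding site.

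Replication-dependent histone genes made up 5 of the 15 genes with the largest higher difference among those whose groups did not overlap. These genes encode the core and linker histones made in S phase. H2bc8 was at 9.92 and 10.24 in BRAF liver and 9.24 and 8.83 in WT liver, against 7.75 and 7.89 in BRAF lung and 6.85 and 7.65 in WT lung. The difference was 2.02 ± 0.23 (SE), or 4.07-fold (limma adjusted p = 0.000566). H3c4 differed by 1.59 ± 0.18 (adjusted p = 0.000409), H1f3 by 1.55 ± 0.23 (adjusted p = 0.00423), H3c15 by 1.11 ± 0.26 (adjusted p = 0.0417) and H2ac8 by 0.97 ± 0.23 (adjusted p = 0.0425). The first 3 stayed called in all 8 fits with 1 array left out, H3c15 in 2 of them (without BRAF liver replicate 2 and without BRAF lung replicate 2) and H2ac8 in 1 (without WT liver replicate 1).

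The wider family was collected after those values were seen. Of 26 such histone genes tested, 25 had a positive difference, beside 7919 of all 15365 genes tested. Their median was 0.89, with 0.8 in BRAF and 0.63 in WT. The 5 called higher were the same 5 that led to the collection, so that count repeats the choice. No other copy was called either way, beside 2.12% of all genes tested. The mean level of the 26 genes was 8.7 and 9.61 in BRAF liver and 8.8 and 8.71 in WT liver, against 8.11 and 8.39 in BRAF lung and 7.61 and 8.38 in WT lung. Of the 31 cell cycle genes tested, 0 were called either way, near the share of 2.12% among all genes tested. Their median was 0.11, or -0.54 without BRAF liver replicate 3 and 0.78 without BRAF liver replicate 2. All 31 differences were positive in BRAF, with a median of 0.64, and 26 were negative in WT, with a median of -0.31. The list's mean level was 7.41 on BRAF liver replicate 2 and 9.95 on BRAF liver replicate 3. Copies of a histone class are near-identical, so the signal of a single copy is uncertain.

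Id1, Id3 and Smad6 were also among the higher genes. Id1 and Id3 encode inhibitors of basic helix-loop-helix factors, Smad6 encodes an inhibitor of BMP receptor signalling, and all of them are known targets of that signalling. Id3 was at 9.22 and 7.99 in BRAF liver and 9.2 and 8.12 in WT liver, against 7.07 and 6.92 in BRAF lung and 6.53 and 6.79 in WT lung. Every liver array was above every lung array, and the difference was 1.81 ± 0.26 (SE), or 3.5-fold (limma adjusted p = 0.00302). Id1 was at 7.97 and 8.53 in BRAF liver and 8.88 and 8.5 in WT liver, against 6.99 and 7.14 in BRAF lung and 7.12 and 6.73 in WT lung. It differed by 1.48 ± 0.23 (adjusted p = 0.00455). Smad6 averaged 6.89 ± 0.21 in liver and 6.19 ± 0.1 in lung (SD, n = 4 each), without overlap, and differed by 0.7 ± 0.16 (adjusted p = 0.0317), a call kept in 2 of the 8 fits with 1 array left out (without BRAF liver replicate 2 and without WT liver replicate 1). Within BRAF, none of Id3 (1.61), Id1 (1.19) and Smad6 (0.53) was called, with limma adjusted p of 0.175, 0.287 and 0.677. Within WT, Id3 (2) and Id1 (1.77) were called and Smad6 (0.86) was not. Id2, of the same family as Id1 and Id3, differed by 0.06 over both genotypes (limma adjusted p = 0.903). In the list of genes of TGF-beta, Notch and retinoic acid signals, to which Id1, Id3 and Smad6 belong, 2 other members were called. They were Tgfbr1, a TGF-beta receptor, at -1.05, and Skil, which represses SMAD factors, at -0.82. The list counted 3 higher and 2 lower of 27 tested, beside 0.202% and 1.91% of all genes tested. Its median was -0.2, and 18 of the 27 differences were negative. The call of Tgfbr1 was kept in 3 of the 8 fits with 1 array left out and that of Skil in 2. The list had 0 lower and 2 higher without BRAF liver replicate 3, BRAF lung replicate 2, WT liver replicate 3, WT lung replicate 1 or WT lung replicate 3, 2 of each without BRAF lung replicate 1, 3 of each without BRAF liver replicate 2 and 4 of each without WT liver replicate 1.

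Other higher genes also had separated arrays. Tarm1, an activating receptor of myeloid cells, averaged 8.73 ± 0.41 in liver and 7.69 ± 0.23 in lung (SD, n = 4 each) and differed by 1.04 ± 0.22 (SE, limma adjusted p = 0.0271). Rbis, Mtus1, Gm9997, Mrpl41, D830025C05Rik and Sult4a1 differed by 0.72 to 0.84. Tarm1 and these genes kept their call in 1 to 4 of the 8 fits with 1 array left out, and each lost it without WT liver replicate 3.

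**Figure D3:**
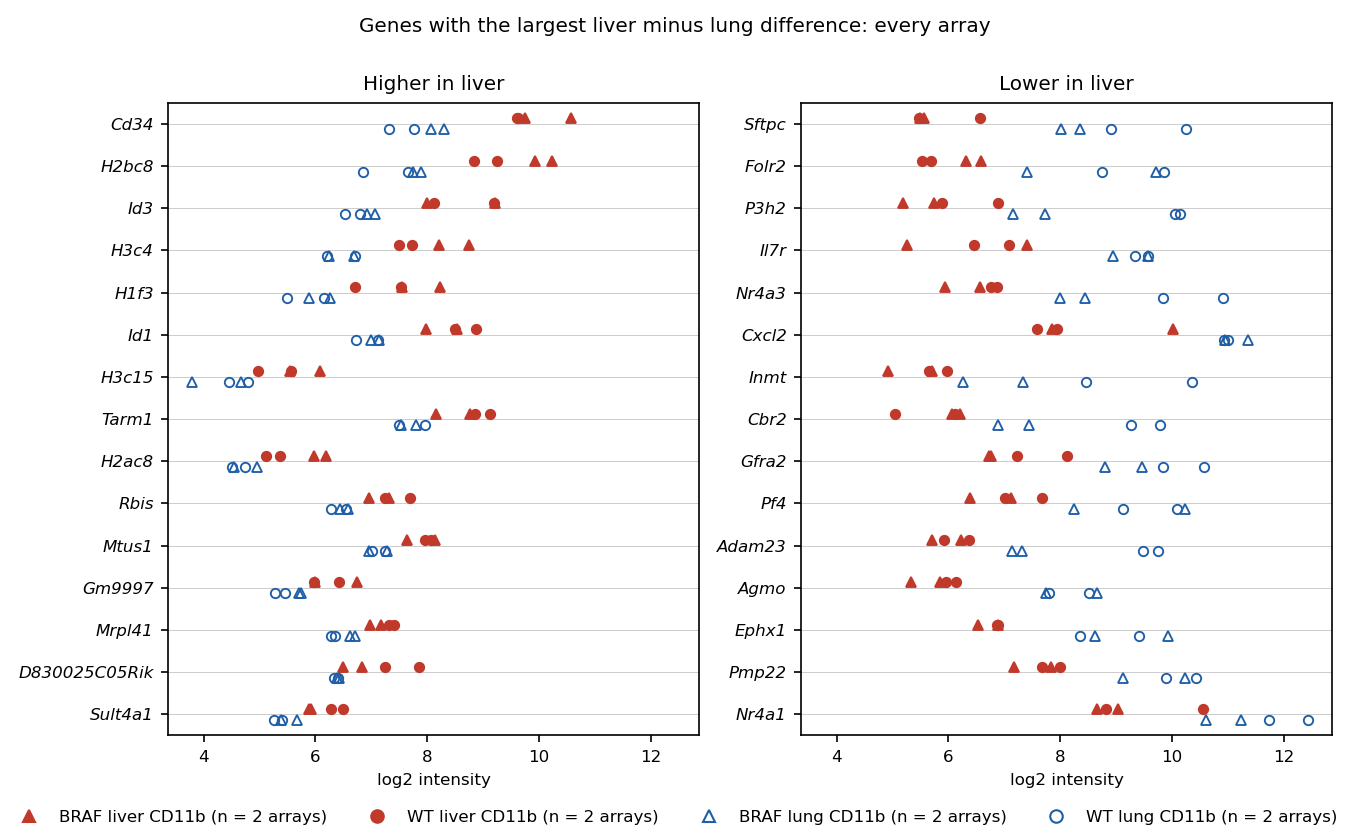
Log2 intensity (x axis) of the 15 genes with the largest higher difference (left) and the 15 with the largest lower difference (right), each of the 8 arrays as a point, for genes whose organs do not overlap. Liver is filled red and lung open blue, with triangles for BRAF and circles for WT; Cd34 lies at 9.61 to 10.58 in liver and at 7.31 to 8.3 in lung.

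Among the lower genes, Sftpc had the largest difference with separated arrays. It encodes surfactant protein C, a product of alveolar type 2 epithelium. Its signal was 5.56 and 5.49 in BRAF liver and 6.57 and 5.48 in WT liver, against 8.01 and 8.35 in BRAF lung and 8.9 and 10.25 in WT lung. The difference was -3.1 ± 0.4 (SE), or 8.58-fold lower (limma adjusted p = 0.00131). Of the 18 lung epithelial genes tested, Sftpc was the 1 called, beside 2.12% of all genes tested, and the list median was -0.01. Lung epithelial list means ran from 6.47 to 6.91 in liver and from 6.98 to 7.12 in lung. The part of epithelial RNA in the Sftpc difference was not tested. Sftpc averaged 10.22 in BRAF and 8.59 in WT lung CD103+ cells.

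Of the 18 markers of interstitial macrophages tested, 8 were called lower in liver and 0 higher, beside 1.91% and 0.202% of all genes tested. Their median was -1.06. Folr2, a folate receptor of tissue macrophages, was at 6.31 and 6.59 in BRAF liver and 5.68 and 5.53 in WT liver, against 9.71 and 7.4 in BRAF lung and 8.75 and 9.86 in WT lung. It differed by -2.91 ± 0.48 (SE), or 7.5-fold lower (limma adjusted p = 0.00706), and the organs did not overlap. Lyve1, a hyaluronan receptor, averaged 6.2 ± 0.39 in liver and 8.43 ± 0.87 in lung, Pf4, a chemokine of platelets and macrophages, 7.05 ± 0.53 and 9.42 ± 0.92, Cbr2, a carbonyl reductase, 5.86 ± 0.54 and 8.34 ± 1.4, and Cd163, a haemoglobin scavenger receptor, 6.44 ± 0.46 and 8.27 ± 0.1 (SD, n = 4 each). Retnla, a secreted product of alternatively activated macrophages, differed by -2.92 ± 0.47 (adjusted p = 0.00648), and its organs overlapped, since WT liver was at 9.74 and 8.36 and BRAF lung replicate 1 at 7.94. Ccl7 and Gas6 were the remaining called members, at -1.6 and -0.98. The members Folr2 and Retnla stayed called in all 8 fits with 1 array left out, while the count of 8 fell to 2 without BRAF lung replicate 1, WT lung replicate 1 or WT lung replicate 3, to 3 without BRAF liver replicate 3 or WT liver replicate 3, and to 1 without the 3 arrays named above together.

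Of the 23 Kupffer cell markers tested, 1 was called higher in liver (Id3) and 3 lower (Folr2, Cd163 and Timd4). The shares over all genes tested were 0.202% and 1.91%. The median of the markers was -0.64. Timd4, a receptor for phosphatidylserine on resident macrophages, averaged 6.21 ± 0.4 in liver and 7.91 ± 0.87 in lung (SD, n = 4 each), with separated arrays. It differed by -1.69 ± 0.36 (SE, limma adjusted p = 0.0265) and averaged 8.82 in BRAF and 9.8 in WT lung CD103+ cells. Without BRAF lung replicate 1 the list median was 0.05 1 member was called lower, and the call of Timd4 was lost, as it was without BRAF liver replicate 3, WT liver replicate 3 or WT lung replicate 1. Without BRAF lung replicate 2 the count was 8. Of the 19 alveolar macrophage markers, 0 were called either way, and 16 had a negative difference; their median was -0.94, or -0.49 without BRAF lung replicate 2, and 2 were called lower without BRAF lung replicate 1 or WT liver replicate 1.

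Genes of non-classical monocytes, the patrolling subset, were called lower in liver for 6 of 17 tested and higher for 0. Over all genes tested, the shares were 1.91% and 0.202%. The list median was -1.06. Nr4a1, the nuclear receptor that subset needs, was at 9.04 and 8.66 in BRAF liver and 10.55 and 8.82 in WT liver, against 11.23 and 10.61 in BRAF lung and 12.43 and 11.74 in WT lung. The organs did not overlap, and WT liver replicate 1 and BRAF lung replicate 2 were the nearest values. The difference was -2.24 ± 0.31 (SE), or 4.71-fold lower (limma adjusted p = 0.0023). Pglyrp1, a peptidoglycan recognition protein, averaged 7.82 ± 0.3 in liver and 9.4 ± 0.43 in lung (SD, n = 4 each), and differed by -1.58 ± 0.19 over both genotypes (adjusted p = 0.000661), by -1.52 in BRAF (adjusted p = 0.0356) and by -1.63 in WT (adjusted p = 0.0102). Eno3, a glycolytic enolase, differed by -1.48 ± 0.16 (adjusted p = 0.000409), and Dusp16, a phosphatase of stress kinases, by -1.74 ± 0.29 (adjusted p = 0.00706). All 4 of these stayed called in each fit with 1 array left out. Ace and Cd300e were the other 2 called members, and the list's count was 4 to 6 over those fits, with 4 without BRAF lung replicate 1, WT liver replicate 3 or WT lung replicate 1. High signal of some members was not particular to lung CD11b+ cells. In BRAF and WT lung CD103+ cells, Pglyrp1 averaged 9.95 and 10.31, Nr4a1 10.64 and 10.97, and Dusp16 9.6 and 9.47. Eno3 was lower there, at 7.74 and 7.6. Of 16 classical monocyte genes tested, 0 were called either way, and the median was 0.15.

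Immediate early genes, which are induced within minutes by growth factor, stress and inflammatory signals, were lower in liver for 7 of 29 tested and higher for 0. That compares with 1.91% and 0.202% of all genes tested, and the list median was -0.57. Nr4a3, a nuclear receptor of the same family as Nr4a1, was at 6.57 and 5.94 in BRAF liver and 6.87 and 6.76 in WT liver, against 7.99 and 8.45 in BRAF lung and 10.91 and 9.83 in WT lung. It differed by -2.76 ± 0.25 (SE), or 6.78-fold lower (limma adjusted p = 8.58e-05), with separated arrays, and was called within BRAF (-1.96) and within WT (-3.56). Egr1 and Fosb, transcription factors downstream of ERK, differed by -1.28 ± 0.21 and -1.77 ± 0.29 (adjusted p = 0.00706 for both). Nr4a1, counted above among the genes of non-classical monocytes too, Nr4a2, Gadd45b and Socs3 were the other called members. The count was 4 without WT lung replicate 1 and 12 without WT liver replicate 1, and 3 without the 3 arrays named above together. The list's mean level was 9.28 and 8.86 in BRAF liver and 9.97 and 9.17 in WT liver, against 9.53 and 9.47 in BRAF lung and 10.64 and 10.42 in WT lung. Such genes also respond to tissue digestion and sorting, steps on which the labels give no difference between organs; their part was not tested.

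Among the ERK targets, 5 of 29 tested were lower in liver and 0 higher, beside 1.91% and 0.202% of all genes tested. Their median was -0.48. The called members were Egr1 and Fosb, shared with the list above, Dusp5, a nuclear ERK phosphatase, at -1.33 ± 0.22 (limma adjusted p = 0.00706), Etv1, an ETS factor, at -1.53 ± 0.27 (adjusted p = 0.00937), and Spred1, an inhibitor of RAS signalling, at -1.32 ± 0.26 (adjusted p = 0.0199). Dusp5 was at 7.99 and 8.04 in BRAF liver and 8.38 and 7.8 in WT liver, against 8.98 and 8.36 in BRAF lung and 10.52 and 9.66 in WT lung, so WT liver replicate 1 overlapped BRAF lung replicate 2. The count of 5 became 4 to 7 with 1 array left out, and 0 without the 3 arrays named above together.

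Mature dendritic cell genes were lower in liver for 4 of 27 tested and higher for 0, beside 1.91% and 0.202% of all genes tested. Of the 27 differences 26 were negative, with a median of -0.63. Ccr7, the chemokine receptor that takes dendritic cells to lymph nodes, was at 7.11 and 6.85 in BRAF liver and 8.37 and 8.03 in WT liver, against 7.37 and 7.62 in BRAF lung and 10.7 and 10.51 in WT lung. The BRAF lung arrays lay below the WT liver arrays. Over both genotypes Ccr7 differed by -1.46 ± 0.24 (SE, limma adjusted p = 0.00706), with -0.52 ± 0.34 in BRAF (adjusted p = 0.855) and -2.41 ± 0.34 in WT (adjusted p = 0.00715). Cd83, a surface marker of mature dendritic cells, averaged 8.89 ± 1 in liver and 10.7 ± 0.91 in lung (SD, n = 4 each) and differed by -1.81 ± 0.28 (adjusted p = 0.00525). Socs2, an inhibitor of cytokine signalling, differed by -2.15 ± 0.26 (adjusted p = 0.000783), and was called within both genotypes. Cd80, a T cell costimulator, differed by -1.19 ± 0.25 (adjusted p = 0.0271) and kept its call in 2 of the 8 fits with 1 array left out (without BRAF liver replicate 2 and without WT liver replicate 1), whereas Ccr7, Cd83 and Socs2 kept theirs in all. The list's count was 3 to 9 over those fits, with 9 without WT liver replicate 1 and 6 without BRAF liver replicate 2. MHC class II genes had 0 of 16 called either way and a median of -0.17.

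Scavenger receptors had 4 of 20 tested called lower and 0 higher, beside 1.91% and 0.202% of all genes tested. The list median was -0.8. Cd36, which takes up oxidized lipids and apoptotic cells, averaged 8.74 ± 0.9 in liver and 10.94 ± 0.56 in lung (SD, n = 4 each), with separated arrays. It differed by -2.2 ± 0.32 (SE, limma adjusted p = 0.00302) and was called within both genotypes. Timd4 and Cd163 are described above, and Colec12, a scavenger receptor of the collectin family, follows with the genotypes. The count fell to 2 without BRAF liver replicate 3, BRAF lung replicate 1, WT liver replicate 3 or WT lung replicate 1.

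Cytokine genes had 3 of 26 tested called lower and 0 higher, beside 1.91% and 0.202% of all genes tested. The list median was -0.65. Tnfsf13b (BAFF), a B cell survival factor, was at 7.42 and 7.35 in BRAF liver and 8.14 and 7.8 in WT liver, against 8.89 and 9.04 in BRAF lung and 9.2 and 9.64 in WT lung. The arrays were separated, and the difference was -1.51 ± 0.23 (SE, limma adjusted p = 0.00459), kept in all 8 fits with 1 array left out. Il1a and Il6 were the others, at -3.03 and -1.54. The call of Il1a was lost without WT liver replicate 3 or WT lung replicate 1, and that of Il6 was kept only without BRAF liver replicate 2 or WT liver replicate 1. The cytokine count was 5 without BRAF liver replicate 2 and 1 without WT liver replicate 3 or WT lung replicate 1. Of the 29 chemokine genes, Cxcl2, Pf4 and Ccl7 were called lower and 0 higher, and the list median was -0.31. Cxcl2, which attracts neutrophils, was at 10.02 and 7.86 in BRAF liver and 7.94 and 7.58 in WT liver, against 11.36 and 10.95 in BRAF lung and 10.93 and 11.01 in WT lung. Its adjusted p was 0.0402, and it kept its call in 2 of the 8 fits (without BRAF liver replicate 2 and without WT liver replicate 1). The count of lower chemokine genes was 0 without BRAF liver replicate 3 or WT lung replicate 3 and 1 without WT liver replicate 3 or WT lung replicate 1.

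Further genes were among the lowest of all. P3h2, a collagen prolyl hydroxylase, was at 5.75 and 5.19 in BRAF liver and 6.88 and 5.88 in WT liver, against 7.73 and 7.16 in BRAF lung and 10.14 and 10.05 in WT lung. It differed by -2.85 ± 0.26 (SE), or 7.19-fold lower (limma adjusted p = 8.58e-05), and averaged 10.9 in BRAF and 11.39 in WT lung CD103+ cells. Il7r, the receptor chain for interleukin 7, averaged 6.56 ± 0.95 in liver and 9.35 ± 0.3 in lung (SD, n = 4 each), and differed by -2.8 ± 0.38 (adjusted p = 0.00196). Il7r is also a T cell marker, and of the other 11 T cell genes tested 0 were called over both genotypes. Within WT, Cd4 was called lower as well. T cell list means were 6.02 to 6.79 in liver and 6.33 to 6.67 in lung. Agmo, which cleaves ether lipids, averaged 5.82 ± 0.35 in liver and 8.18 ± 0.47 in lung, and differed by -2.36 ± 0.23 (adjusted p = 0.000122). Gfra2, a receptor for neurturin, differed by -2.46 ± 0.27 (adjusted p = 0.000409), and Adam23, a member of the ADAM family without protease activity, by -2.37 ± 0.24 (adjusted p = 0.00018). All 5 had separated arrays and stayed called with each array left out, and Il7r, P3h2, Agmo and Gfra2 were called within both genotypes. The BRAF call of Il7r was kept only without BRAF liver replicate 2. Inmt, an amine methyltransferase, differed by -2.54 ± 0.42 (adjusted p = 0.00706) and also stayed called. Ephx1, an epoxide hydrolase, and Pmp22, a membrane protein of myelin, differed by -2.28 and -2.25 and lost their calls without BRAF lung replicate 1, WT liver replicate 3 or WT lung replicate 3.

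Hepatocyte genes had mostly positive differences. Of 16 tested, 15 had a positive difference and 0 were called, with a median of 0.96, and 4 were called higher without BRAF liver replicate 3. Alb, the gene of albumin, was at 11.63 and 8.85 in BRAF liver and 11.4 and 8.05 in WT liver, against 8.23 and 9.64 in BRAF lung and 8.11 and 6.14 in WT lung (limma adjusted p = 0.244). The list means were 7.7 and 6.27 in BRAF liver and 7.6 and 6.53 in WT liver, against 6.38 and 6.47 in BRAF lung and 6.21 and 5.88 in WT lung. WT liver replicate 1 and BRAF liver replicate 2 were thus the high arrays, and the liver and lung ranges of the list mean overlapped.

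**Figure D4:**
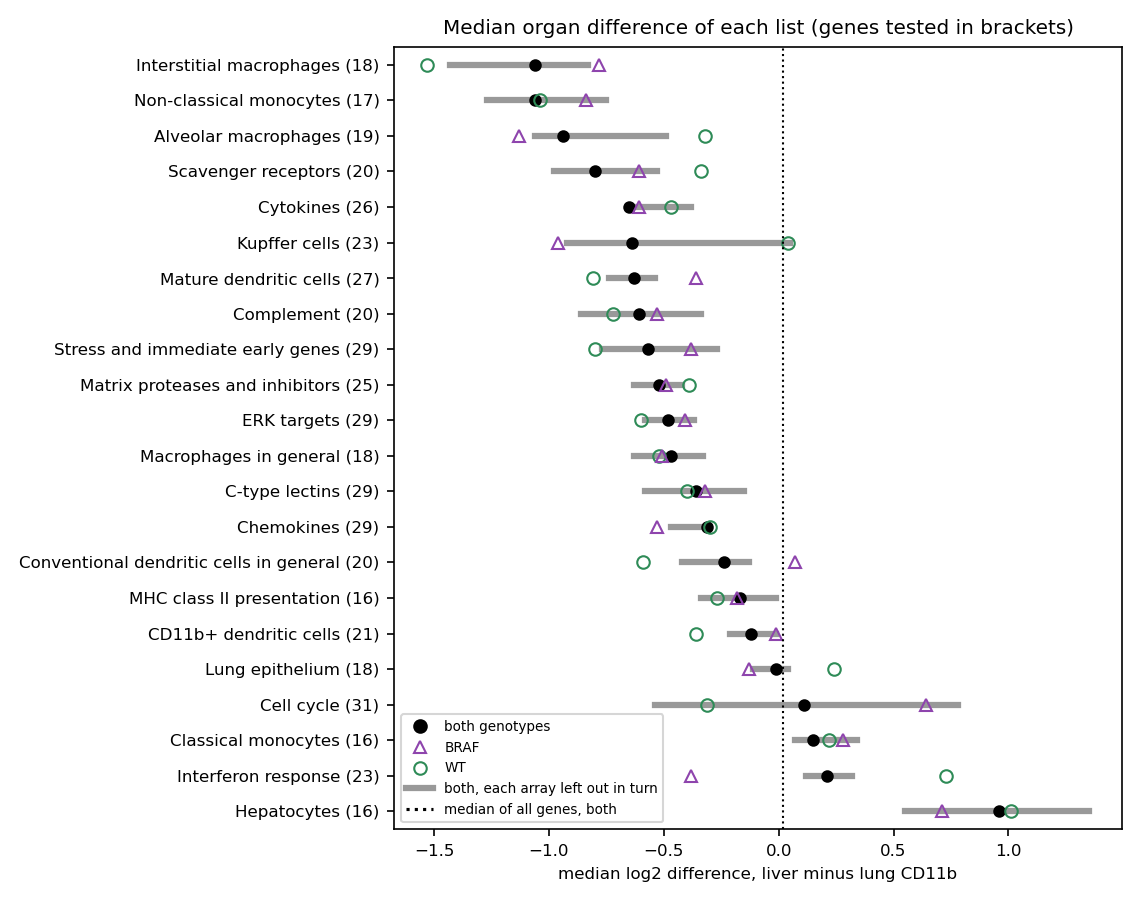
Median log2 difference, liver minus lung, of 22 gene lists over both genotypes (black), in BRAF (purple triangles) and in WT (green circles), with the range of the both-genotype median over the 8 fits with 1 array left out (grey bars) and the median of all genes (dotted, 0.02). Interstitial macrophage and non-classical monocyte genes have the lowest medians (-1.06 each) and hepatocyte genes the highest (0.96).

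The organ difference was then taken within each genotype, which uses separate arrays for BRAF and for WT but 1 shared estimate of the spread. In BRAF, 6 genes were higher and 21 lower in liver (0.039% and 0.137% of the genes tested, 0.176% together), and in WT 40 were higher and 279 lower (0.26% and 1.82%, 2.08% together). The BRAF count was 247 without BRAF liver replicate 2, 13 without BRAF liver replicate 3 and 43 without BRAF lung replicate 2. The WT count was 15 without WT liver replicate 3, 14 without WT lung replicate 1, 28 without WT lung replicate 3 and 2093 without WT liver replicate 1. Under quantile normalization the WT calls were 57 higher and 147 lower, so that 27.9% were higher, against 12.5% with the deposited scaling. Centring the arrays on their medians moved the WT median over all genes tested to -0.18, against -0.07 as deposited.

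Genes called lower in WT mostly had lower signal in BRAF liver too. Of the 279, 242 (86.7%) had a negative difference in BRAF, where their median was -0.47, against a median of -1.41 in WT. Of the 40 called higher in WT, 27 (67.5%) were positive in BRAF, with a median of 0.13 against 1.06 in WT. Over all genes tested, 57% had the same sign in both genotypes, and the correlation across genes was 0.31; genes share the same 8 libraries and are not replicates. Called in both genotypes were 3 higher genes, Cd34, H2bc8 and H3c4, which is 50% of the higher BRAF and 7.5% of the higher WT calls, and 14 lower genes, which is 66.7% of the lower BRAF and 5.02% of the lower WT calls. The 14 were Actn1, Agmo, Cd36, Dst, Emp1, Gfra2, Il7r, Nr4a3, P3h2, Pglyrp1, Radx, Rasgrp3, Slc12a2 and Socs2.

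**Figure D5:**
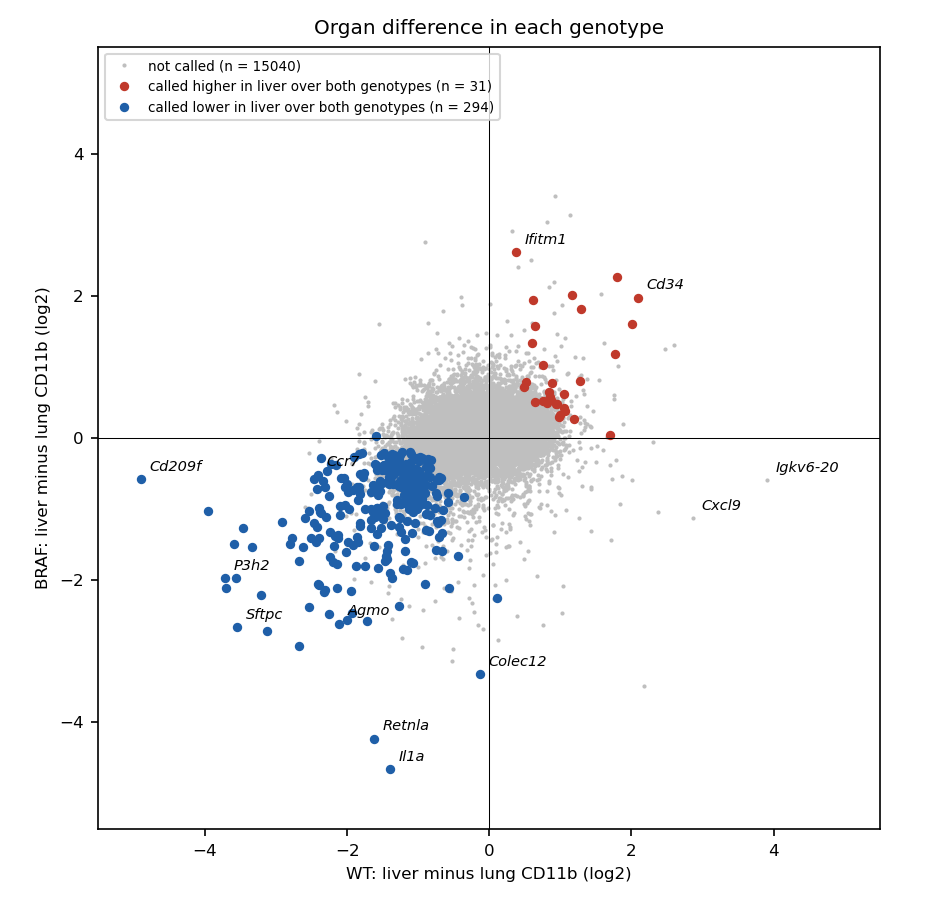
Log2 difference, liver minus lung, in WT (x axis) and in BRAF (y axis) for each of the 15365 genes tested, with the 31 genes called higher over both genotypes in red, the 294 called lower in blue and the others in grey. Cd34 lies near 2 on both axes, whereas Cd209f lies at -0.57 in BRAF and -4.9 in WT, and Il1a at -4.66 in BRAF and -1.4 in WT.

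The difference of the organ contrast between genotypes, BRAF minus WT, was tested directly. By limma, 1392 genes of 15365 had an unadjusted p under 0.05, where 768 would be expected if no gene differed. At an adjusted p under 0.05, 0 genes (0%) passed. With 1 array left out the count was 29 without BRAF liver replicate 2, 16 without BRAF lung replicate 2, 3 without BRAF lung replicate 1, 2 without WT liver replicate 1, 1 without BRAF liver replicate 3 or WT liver replicate 3, and 0 without either WT lung array. The genes below have the smallest p-values of this contrast or the largest called differences within 1 genotype, and none of their differences between genotypes passed the test with all arrays. With 1 array left out, that difference passed for Colec12 without BRAF liver replicate 2, for Ifitm1 without BRAF lung replicate 1 and for Igkv6-20 without either WT liver array.

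Cd209f, a C-type lectin of the DC-SIGN family, was at 4.35 and 3.92 in BRAF liver and 4.35 and 5.07 in BRAF lung, against 4.43 and 3.94 in WT liver and 8.57 and 9.59 in WT lung. It was high on the WT lung arrays alone. Its organ difference was -0.57 in BRAF and -4.9 in WT, where it was called (limma adjusted p = 0.000452), and the difference between genotypes was 4.32 ± 0.75 (SE, adjusted p = 0.281). Cd209b, of the same family, differed by -0.37 in BRAF and by -2.22 in WT (adjusted p = 0.0229). The difference between genotypes for Ccr7 was 1.89 ± 0.48 (adjusted p = 0.46).

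Colec12 had the opposite pattern. It was at 6.71 and 6.14 in BRAF liver and 9.86 and 9.63 in BRAF lung, against 6.27 and 6.6 in WT liver and 6.48 and 6.65 in WT lung. Only the BRAF lung arrays were high among the 8. The organ difference was -3.32 ± 0.39 (SE) in BRAF (limma adjusted p = 0.00307) and -0.12 in WT, and the difference between genotypes was -3.2 ± 0.55 (adjusted p = 0.281). Il1a, the gene of interleukin 1 alpha, was at 7.05 and 5.16 in BRAF liver and 10.71 and 10.82 in BRAF lung, against 7.29 and 5.79 in WT liver and 8.66 and 7.21 in WT lung. It was called in BRAF (-4.66, limma adjusted p = 0.0259), with -1.4 in WT, and the call was lost without BRAF liver replicate 3 or either BRAF lung array. Arg1, the arginase of alternatively activated macrophages, differed by -1.53 in BRAF (adjusted p = 0.0303) and by 0.24 in WT. The BRAF lung arrays that carry these values are the ones with high Kupffer cell and alveolar macrophage markers. In lung CD103+ cells, Colec12 also averaged 8.79 in BRAF and 5.92 in WT, and Il1a 11.16 in BRAF and 8.99 in WT. The part of Kupffer-like and alveolar macrophages in the values was not tested.

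Ifitm1, an interferon-induced membrane protein, was at 11.69 and 11.27 in BRAF liver and 9.42 and 8.31 in BRAF lung, against 9.45 and 9.21 in WT liver and 9 and 8.91 in WT lung. The BRAF liver arrays were the high ones. Its organ difference was 2.62 ± 0.28 (SE) in BRAF (limma adjusted p = 0.0025) and 0.37 ± 0.28 in WT (adjusted p = 0.393), and the difference between genotypes was 2.25 ± 0.4 (adjusted p = 0.281). That difference reached an adjusted p of 0.00525 without BRAF lung replicate 1 and 0.0218 without the 3 arrays named above. Egln3, a prolyl hydroxylase of the hypoxia pathway, was also high in BRAF liver, at 7.8 and 7.76, against 6.22 and 5.47 in BRAF lung. It differed by 1.94 in BRAF (limma adjusted p = 0.0356), a call that most fits with 1 array left out did not keep. Over both genotypes Egln3 was called higher too, at 1.28 (limma adjusted p = 0.0138), a call that some of those fits did not keep.

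Of 23 genes of the interferon response tested, 0 were called in BRAF, beside 0.176% of all genes tested, with a median of -0.38. In WT 4 were called higher in liver, beside 0.26% of all genes tested, with a median of 0.73. Calls over all genes numbered 27 in BRAF and 319 in WT, so the 2 list counts have unlike backgrounds. Over both genotypes 0 were called either way. Cxcl10, a chemokine induced by interferon gamma, was at 9.98 and 9.19 in BRAF liver and 10.14 and 10.1 in BRAF lung, against 11.03 and 11.1 in WT liver and 8.98 and 9.41 in WT lung. Its WT difference was 1.87 ± 0.41 (SE, limma adjusted p = 0.0332). Ifit2, Oasl1 and Gbp5 were called in WT at 1.69, 1.05 and 1.04. Cxcl9, of the same chemokine family, differed by -1.13 in BRAF and by 2.86 ± 0.63 in WT (adjusted p = 0.0332), with a difference between genotypes of -3.99 ± 0.9 (adjusted p = 0.401). The calls of Cxcl9 and of all 4 list members were lost without WT liver replicate 3, WT lung replicate 1 or WT lung replicate 3. The WT count of the list was 1 with arrays centred on their medians and 7 with quantile normalization. The difference of the list between genotypes was not tested as a list. Cxcl10, Ifit2 and Oasl1 were chosen after their values were seen.

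Igkv6-20, an immunoglobulin light chain segment, had the largest higher call in WT. It was at 5.58 and 5.18 in BRAF liver and 11.68 and 8.58 in WT liver, against 6.01 and 5.95 in BRAF lung and 6.18 and 6.25 in WT lung. The WT liver arrays were the high ones and differed widely from each other. The WT difference was 3.91 ± 0.62 (SE, limma adjusted p = 0.0102), a call lost without either WT lung array. Plasma cell genes averaged 7.72 and 7.47 in BRAF liver and 9.15 and 8.17 in WT liver, against 7.78 and 7.75 in BRAF lung and 8.15 and 8.29 in WT lung, with 0 of 10 called; their part in the Igkv6-20 value was not tested.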

How the data were processed

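The authors deposited linear intensity values, 1 per probe set and array; their background correction and normalization are not stated in any label or header read. Array medians were 93.7 to 113.2, no further scaling was applied, and log2 was taken without an added constant. The given table tied 21425 of the 24922 probe sets to a single gene symbol, 1399 to several and 2098 to none. Only single-symbol probe sets were used, by the brightest on average for the 921 genes with more than 1, which left 19752 genes. The test covered the 15365 genes that exceeded the 30th percentile of an array on 2 or more of the 18 arrays.

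A mean for each of the 8 groups was fitted over the 18 arrays with limma 3.58.1 (lmFit, eBayes) in R 4.3.3, because 6 groups have 2 arrays (10 residual degrees of freedom, prior 4.8). Benjamini-Hochberg adjustment ran over all 15365 genes, with calls at an adjusted p under 0.05. The contrasts were the liver minus lung difference averaged over genotypes, in BRAF, in WT, and BRAF minus WT. The number of arrays limits the precision. The code was tested on simulated data.

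By rule, the text names the 15 called genes each way with the largest difference and separated organs, up to 5 called members of any list with more than 2, the 8 each way with the smallest p for the difference between genotypes, the 5 largest calls each way in each genotype, defining markers, and the brightest member of each list of other cell types; not all are printed. Other genes (those completing a list's count or called in both genotypes, histone copies, markers on single arrays) were chosen after their values were seen. Members and the 49 lists were chosen with earlier results of these data known.

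To see whether replicate numbers pair arrays, deviations from group means of same-numbered liver and lung arrays were correlated across genes (r = 0.037 in BRAF and 0.036 in WT). Alternatives were array weights, other filters, scalings, probe set rules and moderation, a replicate block, and fits with fewer arrays. Plots were drawn in Python 3.11.15 with matplotlib 3.10.9.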

Additional observations from a re-analysis of the deposited data

How the results depend on the processing

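The 325 calls over both genotypes numbered 109 with the 8 arrays alone in the fit, 68 when that fit also had no interaction, and 66 without the 3 arrays that stand apart (WT liver replicate 3, BRAF liver replicate 3 and BRAF lung replicate 1, chosen after seeing the data). Without these 3, the members called lower were 3 for non-classical monocytes, 2 for mature dendritic cells, 1 for scavenger receptors and 0 for cytokines, chemokines and Kupffer cells. The count over both genotypes ran from 81 to 1220 with 1 array left out. The 27 BRAF calls numbered 15 with array weights, 6 with the 8 arrays alone and 12 without those 3 arrays, and 13 to 247 with 1 array left out. The 319 WT calls numbered 196 with array weights, 27 with the 8 arrays alone, 204 with quantile normalization, 91 without the 2 arrays of narrowest spread and 32 without those 3 arrays, and 14 to 2093 with 1 array left out. The difference between genotypes, with 0 calls, had 5 without the 2 narrowest arrays, 5 without those 3 arrays, and 0 to 29 with 1 array left out. With the replicate number as a fixed replicate block there were 255 calls over both genotypes, 14 in BRAF, 493 in WT and 10 for the difference; as a random block 259, 20, 236 and 0. With the fixed block, 152 of the 325 calls over both genotypes, 4 of the 27 BRAF calls and 302 of the 319 WT calls were kept. The replicate correlations were 0.037 in BRAF and 0.036 in WT. With 2 arrays in a group the deviations mirror each other, so these low values cannot exclude that arrays are paired. The block was not used elsewhere. The filter, the choice of probe set and trend with robust moderation left each of these totals within 1.5 times of its value. The split over both genotypes, 31 higher and 294 lower, was 51 and 268 with trend and robust moderation and 20 and 333 with median centring. In WT, 40 higher and 279 lower, it was 58 and 237, and 31 and 331. Of 3024 values of single named genes under these settings, 2494 kept their direction and side of the threshold, 466 lost the call, 22 gained one and 42 changed sign, all 42 of them uncalled with and without the change of setting. With quantile normalization these were Zbtb46 (0.02), Arrb1 (0.14), Ifitm3 (0.04), Cd79b (0.27), Xbp1 (0.13), Ccl5 (0.18) and Napsa (0.1); with the fixed replicate block Ifitm3 (0.01), Fcgr2b (0.05) and Tfrc (-0.09); with median centring Id2 (-0.03). Without the 2 narrowest arrays they were Arrb1 (0), Cd79b (0.15), Xbp1 (0.04), Ccl5 (0.23) and Napsa (0.03), and without the 3 arrays above Arrb1 (0.07), Ifitm3 (0.03), Xbp1 (0.05), Ccl5 (0.23) and Napsa (0.04). With 1 array left out, the ranges that crossed 0 were -0.19 to 0.05 for Zbtb46, -0.05 to 0.26 for Siglecf, -0.15 to 0.05 for Ifitm3, -0.59 to 0.04 for Cd209a, -0.22 to 0.33 for Id2, -0.48 to 0.48 for Cd79b, -0.23 to 0.11 for Xbp1, -0.31 to 0.23 for Ccl5, -0.29 to 0.03 for Napsa, -0.09 to 0.77 for Tfrc and -0.2 to 0 for Arrb1. Of 2989 list medians, 121 moved by more than the spread between replicates. Array number and spread limit what 2 arrays in a group can show; the cause of these shifts was not tested.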

Other observations

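Over all genes tested, 1.91% were called lower in liver and 0.202% higher, and these shares stand beside each list count that follows. Of 25 matrix protease genes and inhibitors tested over both genotypes, 4 were called lower in liver and 1 higher, with a list median of -0.52. The lower ones were Adam23, Timp2, an inhibitor of metalloproteinases, at -1.71, Mmp19, a metalloproteinase, at -1.34, and Adam19, a membrane protease, at -1.17, and the higher one was Timp1, another inhibitor, at 0.89. Of the 8 fits with 1 array left out, Adam19 was called in 8, Timp2 in 3 and Mmp19 and Timp1 in 1 each, without WT liver replicate 1. The list counted 0 higher in the other 7 fits, with 3 lower without BRAF liver replicate 2, BRAF liver replicate 3 or BRAF lung replicate 2, and 2 lower without BRAF lung replicate 1, WT liver replicate 3, WT lung replicate 1 or WT lung replicate 3. Of 29 C-type lectin genes, 3 were called lower and 0 higher: Cd209f, Cd209b at -1.29 and Mgl2, a galactose-binding lectin of CD11b+ dendritic cells and macrophages, at -1.84. Cd209b was called in 2 of those 8 fits and Mgl2 in 3. The list counted 1 lower without BRAF liver replicate 3, WT liver replicate 3, WT lung replicate 1 or WT lung replicate 3, 2 without BRAF lung replicate 2, and 5 without BRAF liver replicate 2 or BRAF lung replicate 1, the last also with 1 higher. Iron and haem genes had 2 of 24 called lower, Cd163 and Slco2b1, an organic anion transporter, at -1.48. This count was 0 without BRAF liver replicate 3, BRAF lung replicate 1, WT liver replicate 3 or WT lung replicate 3, 1 without BRAF lung replicate 2 or WT lung replicate 1, and 2 otherwise, with 1 higher without BRAF liver replicate 2. Blnk, an adaptor of B cell receptor signalling, was the 1 of 14 B cell genes called, at -1.37, and its call was kept without BRAF liver replicate 2 or WT liver replicate 1 and lost without each of the other 6 arrays. Tgfbr2 and Cd4 were called lower in WT alone, at -1.12 and -1.53, without a test of the difference from BRAF beyond the count of 0 given for all genes. These genes complete the counts of their lists and were chosen after their values were seen.

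Complement, liver X receptor target, cholesterol synthesis, MHC class I and oxidative phosphorylation genes had 0 members called either way over both genotypes, with medians of -0.61, -0.41, -0.45, 0.04 and 0.13 beside 0.02 for all genes tested. BRAF lung replicate 1 had the highest mean of the 8 arrays for the complement list (9.34) and for the liver X receptor targets (10.35), against 7.78 to 8.08 and 8.45 to 8.96 on the liver arrays.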
